A study of Mus musculus with 4 samples.

Results

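The Iroquois homeobox family (Irx1 to Irx6) was examined in PSC-derived SG placodes and in submandibular glands (SMGs) of E12.5 mouse embryos. Members were taken by gene symbol, and all 6 were found among the 24771 features listed with an expression value. The family was picked with its values in these samples in view, so the levels of its members are described here and carry no test. The placodes came from a single mouse embryonic stem cell (mESC) line, seeded as aggregates at 3000 cells per well in medium that contained 2% Matrigel after day 1. The aggregates received BMP4 (2 ng/ml, day 3), then RA (retinoic acid, 1 μM) with bFGF (25 ng/ml) on day 4, then FGF10 (200 ng/ml, day 6 onward), and RNA was taken on day 10. The sample labels repeat this culture protocol for the E12.5 SMGs, which were taken here as embryonic glands as their titles state, and neither the mouse strain nor the dissection is given. Each group held 2 samples, and no source says whether they came from separate cultures or litters, so that the spread between them may be technical.

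Iroquois genes encode transcription factors of the TALE class, whose homeodomain carries an insertion of extra residues in the loop between its first helices. In the mouse they lie in a pair of clusters, IrxA with Irx1, Irx2 and Irx4, and IrxB with Irx3, Irx5 and Irx6, and each gene of a cluster has a counterpart at the matching place of the other (Irx1 and Irx3, Irx2 and Irx5, Irx4 and Irx6). They are known for dividing the neural plate and other embryonic fields into territories. Irx3 marks progenitor domains of the spinal cord, where it and Olig2 repress each other, Irx4 marks the ventricles of the heart, and Irx5 acts in the retina and in cardiac repolarization.

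The homeoboxes of the 6 members are shown because their likeness bears on how far sequencing reads of the members can be told apart. They were read 5′ to 3′ on the coding strand from GENCODE M21 transcripts (GRCm38), each spans 189 bases that encode 63 residues, and capitals mark the 49 bases that were not the same in all 6 genes.
Irx1: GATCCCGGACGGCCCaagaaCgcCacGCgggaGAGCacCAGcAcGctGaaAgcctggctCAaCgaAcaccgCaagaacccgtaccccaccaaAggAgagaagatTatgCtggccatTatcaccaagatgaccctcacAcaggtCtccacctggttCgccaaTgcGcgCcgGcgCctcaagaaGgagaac
Irx3: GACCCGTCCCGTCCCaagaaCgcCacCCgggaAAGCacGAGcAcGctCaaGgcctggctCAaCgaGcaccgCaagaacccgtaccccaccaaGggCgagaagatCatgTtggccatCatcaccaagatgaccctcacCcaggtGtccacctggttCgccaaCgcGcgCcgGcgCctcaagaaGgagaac
Irx2: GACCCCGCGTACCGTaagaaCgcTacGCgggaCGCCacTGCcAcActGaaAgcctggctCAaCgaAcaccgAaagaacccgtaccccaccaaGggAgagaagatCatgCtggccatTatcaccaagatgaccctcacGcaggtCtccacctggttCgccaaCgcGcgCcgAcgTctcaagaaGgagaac
Irx5: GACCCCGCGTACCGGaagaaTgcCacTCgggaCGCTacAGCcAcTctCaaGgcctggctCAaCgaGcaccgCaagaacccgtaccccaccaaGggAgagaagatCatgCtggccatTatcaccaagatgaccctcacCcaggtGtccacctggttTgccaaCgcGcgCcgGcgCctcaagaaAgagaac
Irx4: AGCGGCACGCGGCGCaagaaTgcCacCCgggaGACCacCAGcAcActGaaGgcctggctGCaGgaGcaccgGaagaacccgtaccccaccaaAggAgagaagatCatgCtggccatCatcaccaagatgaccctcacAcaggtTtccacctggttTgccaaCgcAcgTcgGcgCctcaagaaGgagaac
Irx6: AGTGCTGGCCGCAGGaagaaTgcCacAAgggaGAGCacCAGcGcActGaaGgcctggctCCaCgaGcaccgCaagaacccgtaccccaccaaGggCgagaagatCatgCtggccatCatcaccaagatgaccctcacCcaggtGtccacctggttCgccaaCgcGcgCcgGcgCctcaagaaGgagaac
Between any pair of members, 83.1 to 91.0% of the homeobox bases were identical. The counterparts Irx2 and Irx5 differed at 17 bases, and all 63 encoded residues were the same. Irx1 and Irx3 differed at 20 bases, with 62 of 63 encoded residues identical. Irx4 and Irx6 were less alike, with 58 of 63 residues. The longest stretch shared base for base by the transcripts of a pair had 88 bases and belonged to Irx3 and Irx6, both of the IrxB cluster. It lies in their coding parts and is printed with its 80 homeobox bases in capitals.
Irx3 and Irx6: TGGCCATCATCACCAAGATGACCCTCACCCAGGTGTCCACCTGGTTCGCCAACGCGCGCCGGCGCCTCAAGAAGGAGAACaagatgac
Irx2 and Irx5 shared a stretch of 65 bases, and the stretches of the other 13 pairs were 23 to 50 bases long. The read length is not given in the sources used here, so whether reads from these stretches were assigned to the right member was not tested.

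Among the members with a value above 0 in both groups, the IrxB genes Irx3 and Irx5 stood furthest apart between the groups. Values are FPKM, fragment counts scaled by the authors to transcript length and to the mapped reads of the sample, so that genes can be compared within a sample. Irx3 (Ensembl gene ENSMUSG00000031734, chromosome 8 of GRCm38 from 91798525 to 91802067, minus strand) reached 65.5 FPKM in placode sample 1 and 66.9 FPKM in placode sample 2, against 1.54 FPKM in SMG sample 1 and 1.56 FPKM in SMG sample 2. Its group means of 66.2 ± 0.974 (SD, n = 2) and 1.55 ± 0.0167 (SD, n = 2) were 42.7-fold apart, a log2 difference of 4.72 on the scale of log2(FPKM + 1) (standard error 0.064). The replicates of each group were thus close together and the groups far apart. In bulk RNA, fewer cells that express a gene and less of its RNA per cell cannot be told apart.
Irx5 (ENSMUSG00000031737, chromosome 8 from 92357625 to 92376286, plus strand) reached 45.7 and 47.1 FPKM in placodes 1 and 2, against 1.07 and 1.39 FPKM in SMGs 1 and 2. Its means of 46.4 ± 0.951 (SD, n = 2) and 1.23 ± 0.227 (SD, n = 2) were 37.7-fold apart (log2 difference 4.41, standard error 0.093). The lower placode sample was 32.9 times the higher SMG sample for Irx5 and 42.0 times for Irx3. The ratio of Irx5 to Irx3 was 0.698 and 0.704 in the placodes and 0.696 and 0.891 in the SMGs, so that Irx3 was above Irx5 in every sample.
Irx6 (ENSMUSG00000031738, chromosome 8 from 92674288 to 92680956, plus strand), which acts in bipolar cells of the retina, was low throughout. Placodes gave 0.842 and 1.03 FPKM and SMGs 0.280 and 0.419 FPKM, with means 2.68-fold apart and a log2 difference of 0.52. It was the member without a mean of at least 1 FPKM over the 4 samples, which was required for testing, and it therefore has no standard error from the fit.

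The IrxA genes Irx1 and Irx2 differed less between the groups and were the most abundant members of the SMGs. Irx1 (ENSMUSG00000060969, chromosome 13 from 71957921 to 71963723, minus strand) gave 50.9 and 48.2 FPKM in placodes 1 and 2, against 18.5 and 14.9 FPKM in SMGs 1 and 2. The means of 49.6 ± 1.93 (SD, n = 2) and 16.7 ± 2.54 (SD, n = 2) were 2.96-fold apart, with a log2 difference of 1.52 (standard error 0.10). It ranked above every other member in both SMG samples.
Irx2 (ENSMUSG00000001504, chromosome 13 from 72628820 to 72634198, plus strand), which takes part in the formation of the cerebellum, stood at 39.5 and 40.9 FPKM in placodes 1 and 2. SMGs 1 and 2 gave 9.36 and 6.01 FPKM, the widest spread of any member relative to its mean among those above 1 FPKM in the SMGs. The means of 40.2 ± 1.02 (SD, n = 2) and 7.69 ± 2.37 (SD, n = 2) were 5.23-fold apart (log2 difference 2.27, standard error 0.17). The lower placode sample was 4.22 times the higher SMG sample for Irx2 and 2.60 times for Irx1.
Irx4 (ENSMUSG00000021604, chromosome 13 from 73260479 to 73269608, plus strand) was found at 2.91 and 2.34 FPKM in placodes 1 and 2. Both SMG samples list it at 0, so that no fold change is given. Its log2 difference was 1.85 with 1 added to FPKM and 4.76 with 0.1 added, so that its size depends on this choice. Markers of heart muscle, the tissue in which Irx4 is best known, were near or at 0 in the placodes, where Tnnt2, Myl2 and Myl7 were listed at 0 and the 6 markers summed to 0.291 and 0.345 FPKM. In the SMGs, where Irx4 was listed at 0, these markers summed to 21.6 and 14.9 FPKM, most of it from Tnnt2 and Actn2, which skeletal muscle also expresses.

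**Figure D1:**
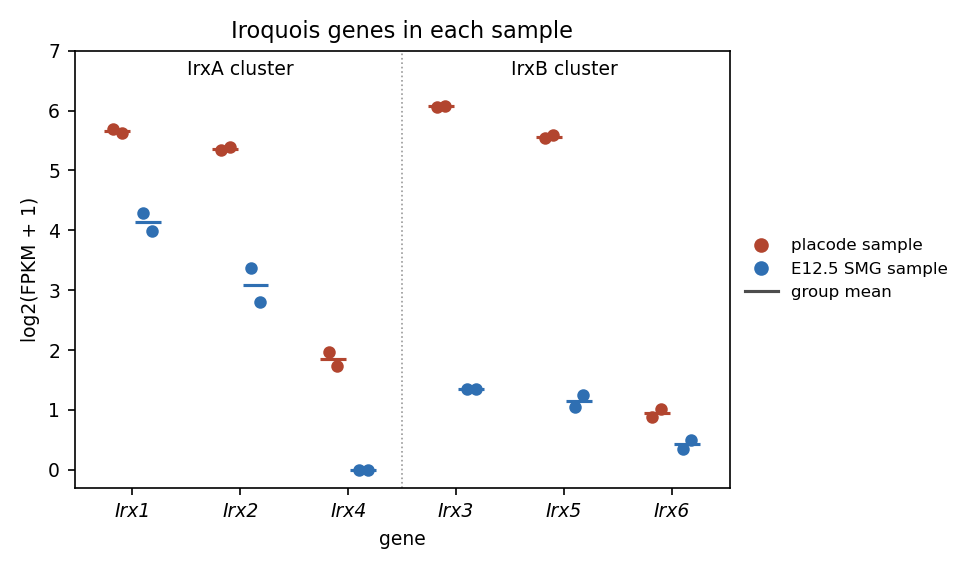
Expression of the 6 Iroquois genes as log2(FPKM + 1) in each of the 2 placode and 2 E12.5 SMG samples (points) with the group mean (short lines), by cluster. Irx3 and Irx5 sit near or above 45 FPKM in the placodes and below 1.6 FPKM in the SMGs, while Irx1 and Irx2 are present in both groups.

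For all 6 members, both placode samples were above both SMG samples. The same held for 35.8% of the 20464 features with a value above 0 in at least 1 sample, and since the members were chosen on this contrast nothing is read from their count. A log2 difference of at least 1 toward the placodes was found for 5 members, all but Irx6, and for 9.89% of those features. With a pseudocount of 0.1 in place of 1, Irx6 differed by 1.22 as well. The 9.89% holds for a pseudocount of 1, and its match at 0.1 was not computed. Among the 13193 tested features, those called higher and at least 2-fold apart rose from 1866 to 2153 with this change.
The order of the levels was the same in both samples of a group and differed between the groups. In the placodes it ran Irx3, Irx1, Irx5, Irx2, Irx4 and Irx6 from the highest to the lowest, and in the SMGs Irx1, Irx2, Irx3, Irx5, Irx6 and Irx4. The values of neighbours in each order did not overlap. The closest neighbours in the placodes were Irx1 at 48.2 to 50.9 and Irx5 at 45.7 to 47.1. Among the members above 1 FPKM in the SMGs, Irx3 at 1.54 to 1.56 and Irx5 at 1.07 to 1.39 were the closest.
Against all features of the same sample, Irx3 was above 96.3 and 96.4% of them in the placodes and above 51.5 and 51.9% in the SMGs. Irx1 was above 94.6 and 94.3% in the placodes and still above 82.7 and 79.2% in the SMGs. Irx6 was above 47.7 and 48.9% in the placodes, which places it near the middle of a list in which many features stand at 0.

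Summed by cluster, IrxA genes reached 93.3 and 91.5 FPKM in placodes 1 and 2, against 27.9 and 20.9 FPKM in SMGs 1 and 2, a 3.79-fold difference of the means. The IrxB genes summed to 112 and 115 FPKM in the placodes and to 2.89 and 3.37 FPKM in the SMGs, a 36.3-fold difference. IrxB thus held 54.6 and 55.7% of the family's summed FPKM in the placodes and 9.38 and 13.9% in the SMGs. The log2 ratio of the IrxB to the IrxA sum came to 0.26 and 0.33 for placodes 1 and 2 and to -3.27 and -2.64 for SMGs 1 and 2, so that the groups lay 3.25 apart on this scale. The order of the clusters in the placodes depended on how their genes were combined, since with the mean of log2(FPKM + 1) in place of the sum IrxB minus IrxA was -0.096 there and -1.43 in the SMGs.
The counterpart pairs Irx1 with Irx3 and Irx2 with Irx5 showed the same shift. The ratio of Irx3 to Irx1 was 1.29 and 1.39 in the placodes and 0.0830 and 0.104 in the SMGs. The ratio of Irx5 to Irx2 was 1.16 and 1.15 in the placodes and 0.114 and 0.231 in the SMGs. For Irx4 and Irx6 the direction was the opposite, with Irx4 above Irx6 in both placode samples and Irx6 above Irx4 in both SMG samples. Within IrxA, the ratio of Irx2 to Irx1 was 0.776 and 0.850 in the placodes and 0.506 and 0.403 in the SMGs.

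**Figure D2:**
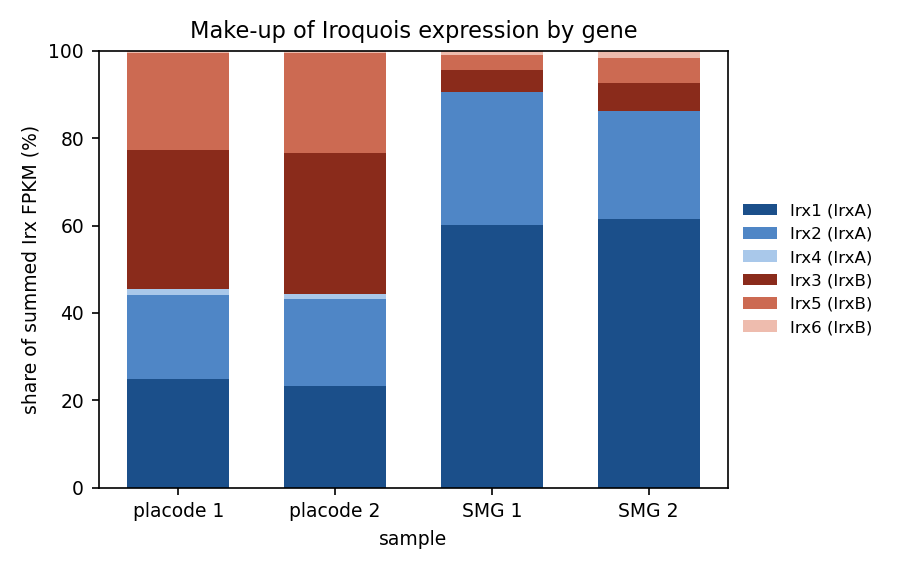
Share of the summed FPKM of the 6 Iroquois genes (y axis, %) held by each gene in each of the 4 samples, with IrxA genes in blue and IrxB genes in red. IrxB genes hold 54.6 and 55.7% in placodes 1 and 2, against 9.38 and 13.9% in SMGs 1 and 2.

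For each member with a mean of at least 1 FPKM, the 3 genes with the most similar values were found by the Euclidean distance of log2(FPKM + 1) over the 4 samples. With 4 samples such a list describes levels and says nothing of shared function or control. Nearest to Irx3 were Ttyh1 (distance 0.17), Mapt (0.36), which encodes the microtubule protein tau of neurons, and Nxph4 (0.38). Nearest to Irx5 were Frzb (0.21), a secreted Wnt antagonist, Bhlhe22 (0.27), a transcription factor of neurons, and Wscd1 (0.28). Irx1 lay closest to Mib1 (0.15), a ubiquitin ligase for Notch ligands, Yaf2 (0.18) and Clasp2 (0.21), and Irx2 to Gadd45g (0.21), C530008M17Rik (0.23) and Tbc1d9 (0.25). Aqp6 (0.11), Sec14l5 (0.17) and Glra2 (0.18), a glycine receptor subunit, were the closest to Irx4. No member was among the 3 nearest genes of another.

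The IrxA cluster spans 1312 kb of chromosome 13 and the IrxB cluster 882 kb of chromosome 8. GENCODE M21 places 10 other genes within or across the bounds of IrxA and 14 within or across those of IrxB, none of them annotated as protein-coding. None of these genes matched a listed feature by Ensembl identifier, so none was analysed here. Among them, Irx3os overlaps Irx3 and Gm45505 overlaps Irx6, both on the opposite strand. The strandedness of the libraries is not given, so reads of Irx3 and Irx6 cannot be told apart from those of their antisense partners.
The 5 protein-coding genes on each side of each cluster were set beside the members with limma, a linear model that borrows the spread of all genes, on log2(FPKM + 1). Tests were made for 15 of these 20 neighbours, and with Benjamini-Hochberg adjustment at a threshold of 0.05 the placodes were higher for 5 and lower for 2. The calls of Med10 and Chd9 (higher) and of Clptm1l (lower) were lost when either placode sample was left out, which left 3 higher and 1 lower. Over all 13193 tested features, 35.7% were higher and 40.4% lower. The median log2 difference of the neighbours was -0.020, against -0.050 over all tested features. Fto, an RNA demethylase gene whose introns are known to hold enhancers that contact Irx3, stood at 37.6 and 35.3 FPKM in placodes 1 and 2, against 38.3 and 36.5 FPKM in SMGs 1 and 2 (log2 difference -0.036, limma adjusted p = 0.585), and the sign of this small difference turned with the scaling of the samples. Its neighbour Rpgrip1l, a gene of the ciliary transition zone, differed by -0.24 (limma adjusted p = 0.0760). On the other side, Mmp2, a matrix metalloproteinase, was lower in the placodes by a log2 difference of -2.17 (standard error 0.058, limma adjusted p = 6.73e-07). On the side of Fto, Aktip was higher by 0.93 (limma adjusted p = 9.48e-05) and Chd9 by 0.35 (limma adjusted p = 0.0148). Beside IrxA, Ube2ql1 was at 63.6 and 61.7 FPKM in the placodes and at 0.980 and 0.577 FPKM in the SMGs (log2 difference 5.17, limma adjusted p = 4.39e-07), a larger difference than that of any Irx gene, and Srd5a1 was higher by 1.30 (limma adjusted p = 9.19e-06). Of the genes between Ube2ql1 and Irx1, Med10 was higher by 0.31 (limma adjusted p = 0.0199), Ice1 differed by -0.031 (limma adjusted p = 0.706) and Adamts16 was below 1 FPKM in every sample.

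**Figure D3:**
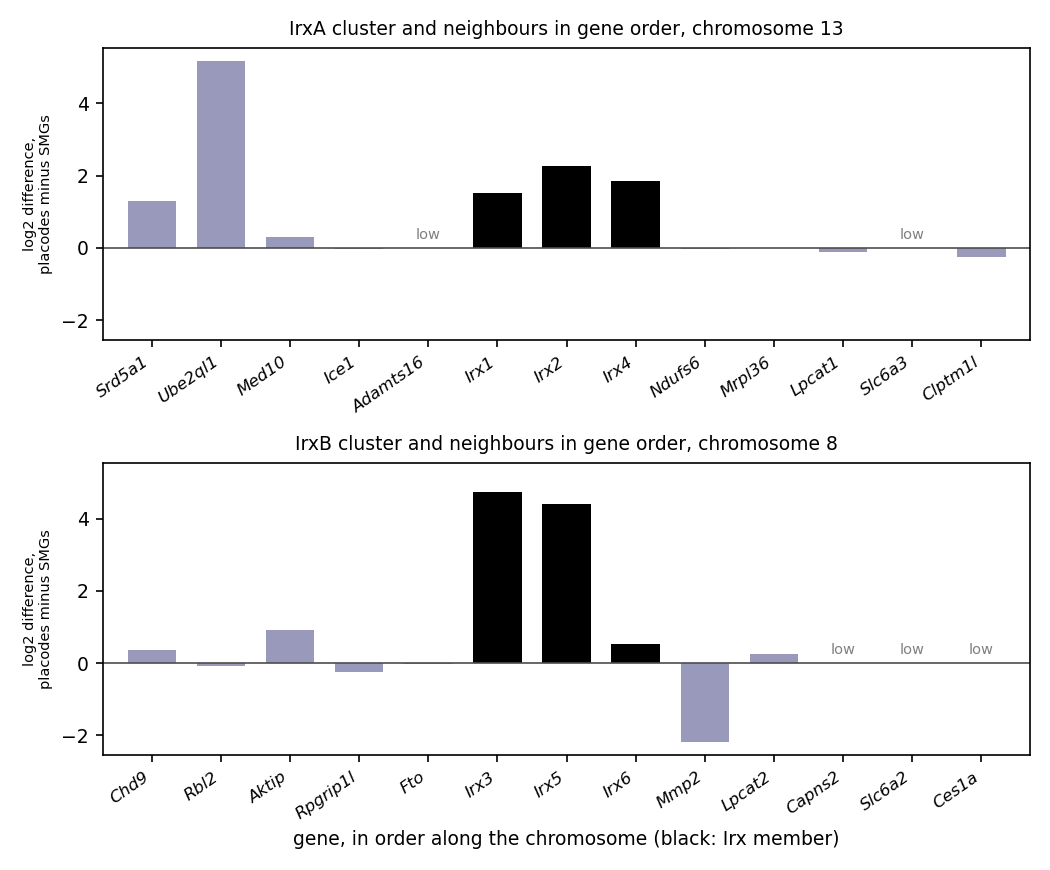
Log2 difference between placodes and SMGs of log2(FPKM + 1) for the 3 members of each cluster (black) and the 5 protein-coding genes on either side (grey-blue), in gene order and not to distance; "low" marks neighbours under a mean of 1 FPKM, while Irx6 is drawn although it was under it. Irx3 and Irx5 stand at 4.72 and 4.41 beside Fto at -0.036, and Ube2ql1 at 5.17 lies on the Irx1 side of IrxA.

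Promoter sequences in RefSeq (GRCm38.p6, windows of 300 bases around the RefSeq start) were found for Irx2, Irx3 and Irx4. The Irx3 window, on chromosome 8 from 91801605 to 91801904, lies inside the GENCODE gene given above and does not hold the GENCODE start. These held 25, 14 and 31 CpG dinucleotides, against a median of 7.0 over 32851 promoters. On both strands, neither the Iroquois site ACANNTGT nor the retinoid half-site AGGTCA was in any of these windows, and 7.38 and 16.3% of all promoters held them. The GC box GGGCGG was found for Irx2 and Irx4, and in 35.7% of all promoters.

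Other genes of the same protein class and of the territories in which Iroquois genes act were counted in lists that were set with earlier results of these data known. Of all 13193 tested features, 35.7% were called higher in the placodes and 40.4% lower. Tests were made for 11 of 12 TALE homeobox relatives, and 7 rose toward the placodes while 2 fell, with a median log2 difference of 0.72. Pbx3, a cofactor of Hox proteins, was the highest, at 102 and 109 FPKM against 16.6 and 17.8 FPKM (log2 difference 2.55, limma adjusted p = 4.70e-07). Irx3 and Irx5 had larger log2 differences than each of these 11 relatives, but the members were chosen on this contrast, so nothing is read from this order.
Of 11 dorsoventral factors of the neural tube, 7 were tested and all 7 were higher in the placodes (median log2 difference 2.71). They ranged from Shh, the ventral signal, at 1.86 (limma adjusted p = 2.35e-05) to Dbx1, a factor of the intermediate neural tube, at 6.38 (limma adjusted p = 1.59e-07). SMG values in this list reached at most 1.27 FPKM, so the tested genes passed the minimum mainly through the placodes. Their direction was thus largely fixed beforehand. Nothing is read from the count or the median, beside 35.7% of all tested features called higher. Olig2, the counterpart of Irx3 in the spinal cord, was at 1.13 and 1.96 FPKM in the placodes, where Irx3 was at 65.5 and 66.9 FPKM, and both SMG samples list it at 0.
Of 9 genes of the midbrain-hindbrain boundary, 5 were tested and all 5 were higher (median 4.55), from Lmx1b at 2.17 (limma adjusted p = 2.01e-05) to Pax8 at 5.42 (limma adjusted p = 1.68e-07). No SMG value in this list exceeded 0.098 FPKM, so a gene could reach the minimum only through the placodes. The direction was thus fixed beforehand, and nothing is read from this count or median, beside 35.7% of all tested features called higher. Fgf8, the signal of this boundary with which Irx2 is known to act in the cerebellum, was listed at 0 in both placode samples. The 8 factors of the anterior forebrain, among them Six3 and Fezf2, which oppose Irx genes at their anterior border, were below 0.25 FPKM in every sample, so none was tested.
Among 13 partners and targets of Irx factors described in other tissues, tests were made for 6, of which 1 rose toward the placodes and 3 fell (median -0.49). With 35.7% of all tested features higher and 40.4% lower, nothing is read from these counts. Cxcl12, a chemokine gene that Irx5 is known to repress in craniofacial development, was at 3.71 and 3.36 FPKM in the placodes and at 150.3 and 171 FPKM in the SMGs (log2 difference -5.15, limma adjusted p = 1.70e-07). Trps1, whose product binds Irx5, was higher by 0.67 (limma adjusted p = 3.86e-03), a call that was lost when features of any mean FPKM were tested (limma adjusted p = 0.0566). Gja5, which Irx3 activates in the conduction system of the heart, was lower by a log2 difference of -3.11 (limma adjusted p = 1.50e-06), and Gja1, which Irx3 represses there, by -0.68 (limma adjusted p = 6.06e-05). Gja5 was at 0.0199 and 0.0480 FPKM in the placodes, so it passed the minimum only through the SMGs. Whether Irx factors had a part in the levels of these genes was not tested. The mesenchyme and endothelial markers given below were all lower in the placodes too.

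**Figure D4:**
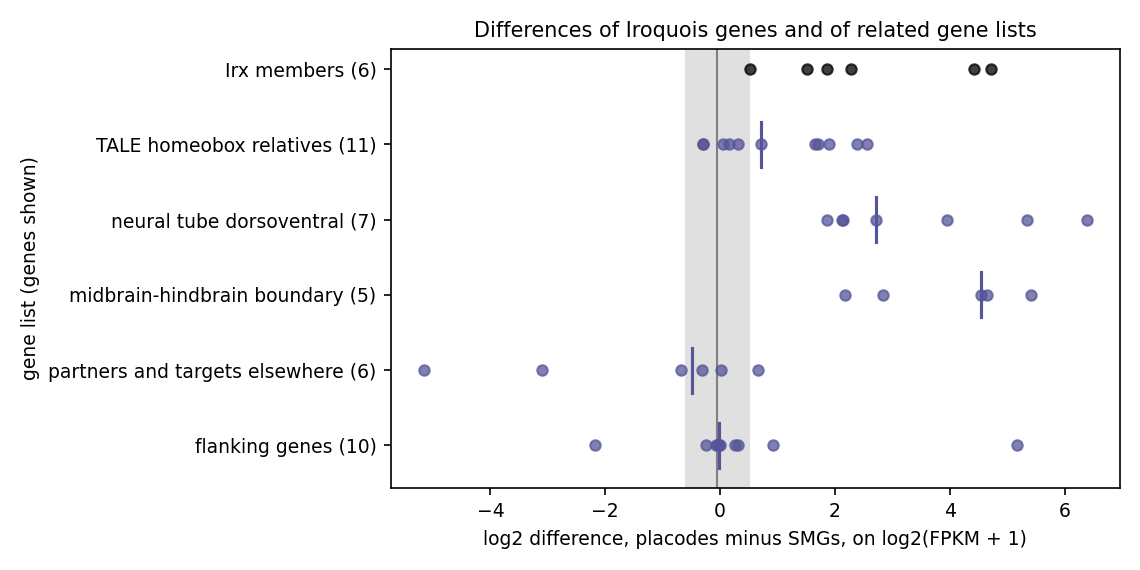
Log2 difference between placodes and SMGs of log2(FPKM + 1) for the 6 Irx members (black) and the tested genes of 5 lists (blue, with the median as a line); the grey band is the interquartile range of all 13193 tested features, from -0.60 to 0.50, around their median of -0.050. Irx3 and Irx5, at 4.72 and 4.41, had the largest differences among the members on this scale. With a pseudocount of 0.1, Irx4 reached 4.76, against 5.33 for Irx3 and 5.14 for Irx5. The members were chosen on this contrast, and the dorsoventral and midbrain-hindbrain genes passed the minimum mainly or only through the placodes. Nothing is therefore read from the place of the members beside the lists.

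The groups also differed in the cell types that their markers show, and the part of these differences in the Irx values was not tested. All 5 neural progenitor markers and all 5 neuron markers were higher in the placodes. In SMGs 1 and 2, Hes5 was at 0.0343 and 0.193 FPKM and Sox1 at 0.0130 and 0 FPKM. These progenitor markers passed the minimum only through the placodes and could only be higher. Among all tested features, 35.7% were higher and 40.4% lower, and nothing is read from the counts of markers given here. The progenitor markers summed to 658 and 690 FPKM in the placodes, against 51.0 and 45.4 FPKM in the SMGs. The neuron markers summed to 868 and 901 FPKM in the placodes, against 83.3 and 74.7 FPKM in the SMGs. The 8 epithelial markers summed to 72.8 and 79.7 FPKM in the placodes and to 376 and 337 FPKM in the SMGs, and 1 of them was higher and 5 were lower in the placodes. Krt19, a keratin of ducts, was higher by a log2 difference of 0.85 (limma adjusted p = 0.00363). Krt8 and Krt18, keratins of simple epithelia, differed by 0.13 and 0.34 (limma adjusted p = 0.322 and 0.0541). Krt5, Krt14 and Krt15, keratins of basal epithelial cells, were listed at 0 in both placode samples, so they could only be lower. All 6 mesenchyme markers and all 4 endothelial markers were lower in the placodes, as were the 5 tested of 6 erythroid markers, which summed to 2920 and 2940 FPKM in SMGs 1 and 2. No erythroid marker exceeded 0.073 FPKM in the placodes, so those tested passed the minimum only through the SMGs and could only be lower. The 4 skeletal muscle markers summed to 12.7 and 11.5 FPKM in placodes 1 and 2, nearly all of it Pax7, which the dorsoventral list also holds, and to 41.0 and 29.5 FPKM in SMGs 1 and 2. The sources do not say in which cells of either group the Irx genes were expressed, and bulk values do not show it.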

How the data were processed

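Total RNA of 2 placode samples and 2 SMG samples was sequenced as paired-end reads, and samples were grouped by their labels. The authors mapped the reads with HISAT2 and deposited FPKM for each feature and sample, normalized to transcript length and mapped reads. The submitters' processing notes list the builds GRCm38 and GRCh38, and the HISAT2 version, the FPKM program, the annotation, the strandedness and the depth are not given in the sources used here. The FPKM sum per sample was 361963 to 384773. Without counts, no counting interval or detection floor is given.

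FPKM was transformed as log2(FPKM + 1), and 13193 of 24771 features with a mean of at least 1 FPKM entered limma (version 3.58.1, R version 4.3.3, eBayes with trend, group as the only term, two-sided, Benjamini-Hochberg over all tested features, threshold 0.05). A fold change on this scale understates the change of low genes. The procedure was tested on simulated data. Coordinates and homeoboxes came from GENCODE M21, matched by Ensembl identifier, and homeoboxes were placed by the conserved motif of the recognition helix. Figures were drawn with Python 3.11.15.

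The members and lists were chosen with earlier results of these data known. Named were all members, the 3 nearest genes of each member above the minimum, the highest and lowest called gene of each list, further genes of the lists, and the 5 protein-coding neighbours on each side of a cluster. Pseudocounts of 0.1 and 0.5, other scalings, other minima, a replicate block, eBayes without trend, leaving out Irx3 and leaving out each replicate were tried. Irx3os and Crnde were not analysed here. A gene that the rule for named genes would name is not reported here.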

Additional observations from a re-analysis of the deposited data

How the results depend on the processing

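The median log2 difference of the members, which includes Irx4 at 0 in the SMGs, was 2.06 and moved to 3.58 and 2.49 at pseudocounts of 0.1 and 0.5 and to 2.73 after scaling to an equal sum per sample (TPM), which raises all values against the pseudocount. Without single replicates it was 1.92 to 2.20. The log2 ratio of summed IrxB to IrxA was 0.30 in the placodes, -0.096 by mean log2 values and -0.96 without Irx3. In the SMGs it was -2.95, and -1.43 and -3.95 under these alternatives. Leaving out a gene of IrxB alone can only lower this ratio, so the values without Irx3 carry no weight. The difference between the groups was 3.25, and 1.34 by mean log2 values. Without single replicates the ratio was 0.26 to 0.33 in the placodes, -3.27 to -2.64 in the SMGs, and the difference 2.93 to 3.57.

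With no minimum of mean FPKM more genes entered the test, and 11 dorsoventral factors, 2 anterior forebrain factors and 3 partners and targets were called higher, and 3 neighbours. With a minimum of 5 FPKM fewer genes entered, and 4 dorsoventral, 3 boundary and 0 partner genes were called higher by limma, where neither of the 2 partner genes left was higher. A shorter list of flanking genes had 12 members with values, all of them among the 20 neighbours, of which 10 were tested, 3 were higher and 1 was lower. Without trend, 2 of them were lower, with Rpgrip1l gained. Without single replicates, 3 to 4 neighbours were called higher and 1 to 2 lower, as fewer samples remained. Med10, Chd9 and Clptm1l, neighbours with log2 differences of 0.31, 0.35 and -0.25, lost their calls when a placode sample was left out. Of 36 named list and neighbour genes, 28 kept call and direction in every setting in which they were tested, and some were not tested at the minimum of 5 FPKM. Fto, not called, turned from -0.036 to 0.024 under TPM, to 0.022 under median-ratio scaling and ranged from -0.0801 to 0.0082 without single replicates, and Kcnd2, not called, was 0.014, from -0.0802 to 0.11 without single replicates, and also turned, to -0.0044, without SMG replicate 1.

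With the replicate number as a block, 7 TALE relatives, 7 dorsoventral and 5 boundary genes were called higher, the same counts as without it. Samples of the same number did not deviate together across features (r = -0.0348). With 2 samples per group this is a single comparison, so it cannot settle whether the numbers pair the samples.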

Other observations

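The SMG samples differed from each other in IrxA more than the placode samples did. SMG sample 1 was above SMG sample 2 for Irx1 (18.5 and 14.9 FPKM) and Irx2 (9.36 and 6.01 FPKM), and below it for Irx5 (1.07 and 1.39 FPKM) and Irx6 (0.280 and 0.419 FPKM), so that the IrxB share was 9.38 and 13.9%. In the same samples, Krt19 was at 9.78 and 6.53 FPKM, Myog at 28.3 and 21.2 FPKM and Cdh1 at 28.2 and 24.7 FPKM. Other markers went the other way, among them Twist1 at 61.55 and 67.5 FPKM and Cdh5 at 30.34 and 35.36 FPKM. With 2 samples, these differences were not tested.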
